A study of Mus musculus with 7 samples.

Results

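The cells described here are mature resting natural killer (NK) cells of mouse liver, chosen cell by cell from UMI counts (unique molecular identifiers, 1 per captured RNA molecule). A cell barcode entered if it had 500 or more UMIs from 200 or more genes, with mitochondrial UMIs below 20%. It was a member if it had no UMI of the CD3 genes Cd3d, Cd3e and Cd3g, at least 1 UMI of Ncr1 or Klrb1c (the NK receptors NKp46 and NK1.1), and at least 1 UMI of S1pr5 or Cma1. It also had no UMI of Itga1 or Ifng and at most 1 UMI of Mki67 and Top2a together. In all, 4419 of 62304 kept barcodes met the rule, 4366 of them in IL-2/CD25 samples and 53 in control samples. The values of these genes chose the members, so they are not results below, and neither is any contrast between members and the other CD3-negative cells with Ncr1 or Klrb1c (called NK-gated cells), which is given as a description without a test.

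The series is single-cell RNA sequencing (10x Genomics 3′ v3.1) of 7 mouse samples whose labels call the tissue HCC, for hepatocellular carcinoma. In all 7, plasmids encoding Nras and C-myc had been injected through the tail vein under high pressure, which delivers DNA to the liver. In the IL-2/CD25 group (n = 4) a plasmid expressing IL-2/CD25, named in the title as a fusion protein, was injected with them, and the control group (n = 3) did not receive it. Samples were taken 2 weeks later. The labels give no strain, sex, age, promoter of the IL-2/CD25 plasmid or enrichment of immune cells, and they do not say that the samples came from separate animals, so p-values measure the spread between these samples.

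NK cells are innate lymphocytes that kill infected or transformed cells without antigen receptors. Perforin opens the target's membrane and granzymes enter through it. Mouse NK cells mature from a CD27+ stage to a CD11b+ CD27- stage (CD11b is encoded by Itgam) that carries KLRG1, is long-lived, divides little and circulates. The sphingosine-1-phosphate receptor S1PR5 lets mature NK cells leave lymph nodes and bone marrow, and Cma1 encodes a chymase that mouse NK cells transcribe. Their maturation depends on the transcription factors T-bet, ZEB2 and BLIMP-1, and their survival on IL-15, whose receptor shares the beta and gamma chains with that for IL-2. The liver also holds type 1 innate lymphoid cells (ILC1), which carry NK1.1 too and stay in the tissue. The integrin gene Itga1 marks them, and the rule leaves out cells with its UMIs.

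The libraries differed in depth between the groups. Kept barcodes numbered 7244 to 10439 in IL-2/CD25 samples and 7263 to 9520 in control samples, and their median UMI count was 3215 to 4477.5 in IL-2/CD25 and 6253.5 to 8724 in control. Any 2 libraries shared 14 to 37 barcodes, and no member barcode was shared. Members had a median of 4006.5, 3327, 2928 and 3633 UMIs in IL-2/CD25 samples 1 to 4, against 3274, 4744 and 2486 in control samples 1 to 3. Summed over members, the libraries held 2741148 to 5039651 UMIs in IL-2/CD25 and 68927, 113288 and 118174 in control. Every control value below rests on 16, 23 and 14 cells.

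The label was checked with marker lists. The NK list (Nkg7, Gzma, Klre1, Klrd1, Eomes and the rule's Ncr1 and Klrb1c) summed to 17752 to 21901 CPM (UMIs of the gene per 1e+06 UMIs of the members) in members of IL-2/CD25 samples, against 11186, 14565 and 5475 CPM in control samples 1 to 3. The list for ILC1 summed to 44.8 to 82.8 CPM in IL-2/CD25 and to 247, 44.1 and 212 CPM in control. Cells of other types were a small share of members in IL-2/CD25 samples, where another list held more UMIs than the NK list in 1.91 to 2.78% of members. In control samples this was so in 1 of 16, 0 of 23 and 2 of 14 members. One of these, in control sample 3, held 74568 UMIs with 2 of the NK list and 664 of the tumour list, and made up 63.1% of all member UMIs of that sample. CPM divides by these UMIs too. Levels of NK genes given for control sample 3 are therefore lowered by this barcode, unless other types are left out. The neutrophil list summed to 294 to 868 CPM in IL-2/CD25 members, against 1190, 1404 and 11712 CPM in control members. List counts that changed without these cells, and genes whose call depended on them, are therefore also given with them left out, a choice made after the data were seen, which kept 15, 23 and 12 control members. Without the rule's Ncr1 and Klrb1c, at least 5 UMIs of the other 5 genes of the NK list were found in 637 of 648, 1142 of 1149, 1244 of 1258 and 1298 of 1311 members in IL-2/CD25, and in 15 of 16, 23 of 23 and 13 of 14 members in control. These genes mark NK cells in general and do not check the words mature and resting, which rest on the rule.

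Mature resting NK cells were a larger share of NK-gated cells in IL-2/CD25 samples than in controls. They were 23.6, 36.1, 33.3 and 33.0% of NK-gated cells in IL-2/CD25 samples 1 to 4 (648 of 2744, 1149 of 3181, 1258 of 3783 and 1311 of 3975 cells). In control samples 1 to 3 they were 5.73, 5.82 and 5.91% (16 of 279, 23 of 395 and 14 of 237 cells). The groups did not overlap, IL-2/CD25 sample 1 was the lowest of its group, and the control samples lay close together. The means were 31.5% ± 5.44 in IL-2/CD25 and 5.82% ± 0.0862 in control (SD, n = 4 and 3), a difference of 25.7 percentage points (exact two-sided permutation test, p = 0.0286, the smallest that 35 splits allow, adjusted p = 0.0286 over 3 shares).

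The groups did not overlap as a share of all kept barcodes either. Members were 8.95, 13.1, 12.1 and 12.6% of kept barcodes in IL-2/CD25 samples and 0.168, 0.317 and 0.162% in control samples (11.7% ± 1.87 against 0.215% ± 0.0877, exact permutation p = 0.0286, adjusted p = 0.0286). This second value also moves with how many tumour cells and neutrophils were captured. Since the rule asks for UMIs, each cell was also thinned to 2000 UMIs before the rule was applied, which left out shallower cells. Members were then 26.8, 38.3, 35.3 and 35.6% of NK-gated cells in IL-2/CD25 samples, against 6.04, 4.39 and 10.4% in controls (exact permutation p = 0.0286, adjusted p = 0.0286). Equal depth left the groups apart, as the plot of shares by sample shows.

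**Figure D1:**
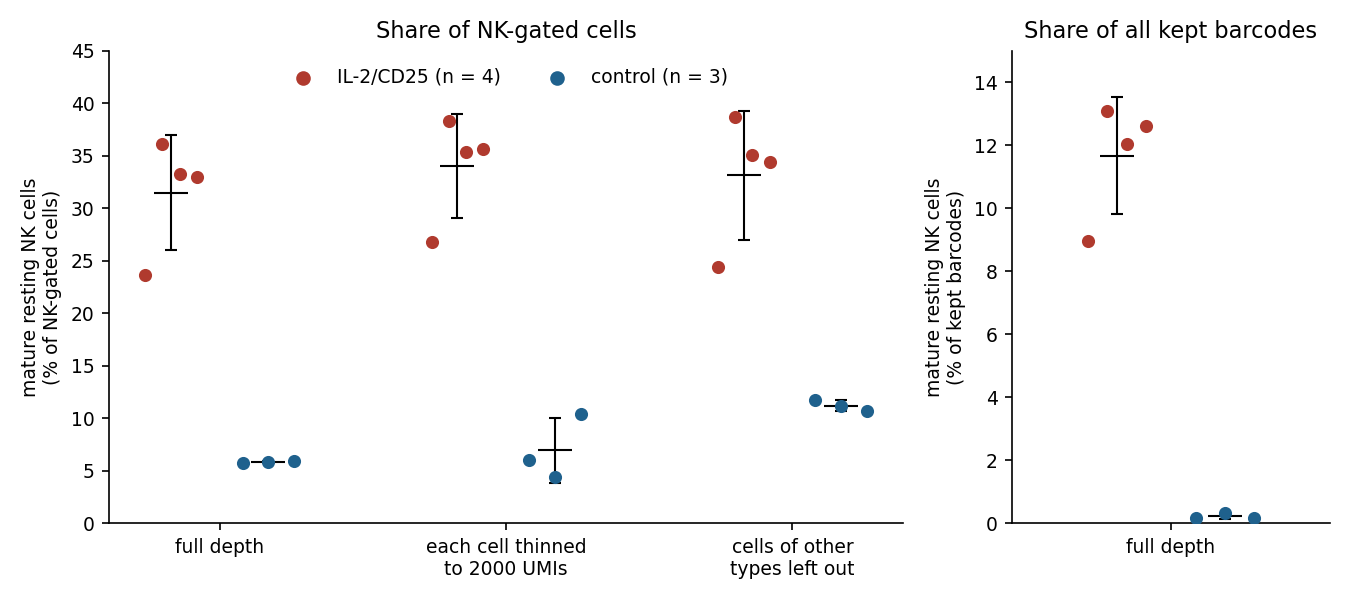
Mature resting NK cells as a percentage of NK-gated cells (left, in 3 settings) and of all kept barcodes (right), with a point per sample, IL-2/CD25 in red left of control in blue, horizontal bars for means and whiskers for SD. At full depth the 4 IL-2/CD25 samples lie between 23.6 and 36.1% of NK-gated cells, and the 3 control samples between 5.73 and 5.91%.

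The NK gate itself held other cells in controls. Another marker list exceeded the NK list in 6.49 to 12.2% of the other NK-gated cells of IL-2/CD25 samples and in 57.0, 50.8 and 55.2% of those of control samples. With such cells left out of the gate, members were 24.4, 38.7, 35.04 and 34.4% of NK-gated cells in IL-2/CD25 samples, against 11.7, 11.2 and 10.7% in controls. The control shares were higher with this gate, and the groups still did not overlap (exact permutation p = 0.0286). B cells, which should lack these NK genes, show how often free RNA or a second cell in the droplet gives a UMI. A UMI of S1pr5 or Cma1 was found in 5.11 to 7.01% of B cells of IL-2/CD25 samples and in 0.319 to 1.25% of those of controls. In NK-gated cells it was found in 60.1 to 65.04% in IL-2/CD25 and in 10.1 to 12.9% in control, at a median of 3054 to 4344 and 6598 to 8659 UMIs. The B cells had a median of 2580 to 3076 UMIs in IL-2/CD25 and 1891 to 2495.5 in control. The whole rule was met by 1.11 to 2.16% of B cells of IL-2/CD25 samples, and by 0 of 240, 0 of 80 and 0 of 313 of controls.

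The terms that kept NK-gated cells out of the pool differed between the groups. No UMI of S1pr5 or Cma1 was found in 39.9, 34.96, 36.5 and 36.4% of NK-gated cells of IL-2/CD25 samples, against 89.2, 87.1 and 89.9% in controls. An Ifng UMI, the cytokine NK cells release when activated, was found in 46.0, 34.5, 37.9 and 31.3% in IL-2/CD25, against 9.32, 21.8 and 11.4% in controls. An Itga1 UMI was found in 29.8, 20.2, 18.4 and 27.8% in IL-2/CD25, against 8.96, 6.08 and 4.22% in controls. More than 1 UMI of the division genes Mki67 and Top2a was found in 6.45, 4.40, 4.07 and 5.26% in IL-2/CD25, against 16.5, 21.3 and 33.3% in controls. Cells with S1pr5 or Cma1 that failed only through Itga1, Ifng or division were 28.9 to 36.5% of NK-gated cells in IL-2/CD25 and 4.22 to 7.09% in control.

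How far members lay inside the rule is given as a description, since it uses the rule's own genes. Both S1pr5 and Cma1 were found in 46.6, 46.9, 43.6 and 48.9% of members in IL-2/CD25, against 12.5, 13.0 and 14.3% in controls. A single UMI of the pair was the only one in 25.2 to 29.7% of members in IL-2/CD25, against 75.0, 56.5 and 64.3% in controls. With 2 UMIs of S1pr5 and Cma1 asked for, 4, 10 and 5 control cells remained.

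Among IL-2/CD25 members, the genes that mark maturity followed the number of rule genes a cell held. Per sample, Cx3cr1, the fractalkine receptor of mature NK cells, was at 291 ± 29.2 CPM in cells with both genes, 195 ± 51.7 with Cma1 only and 150 ± 19.1 with S1pr5 only (SD, n = 4 samples). In the cells that met every other term but held neither gene it was at 64.2 ± 28.6 CPM. Emb, which encodes the cell-surface protein embigin, ran the other way, at 19.9, 60.1, 80.1 and 296 CPM in the same order. Klrg1 stood at 449, 368, 351 and 127 CPM and Cd27 at 36.9, 55.6, 66.9 and 93.0 CPM in that order. These classes are cut by UMIs of the same cells, with median depths of 2816 to 4108.5 UMIs, so the gradient is a description. Cells with exactly 1 UMI of the pair, just inside the rule, had 427 CPM of Itgam and 89.3 CPM of Emb, against 195 and 296 CPM in those with none, just outside it.

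**Figure D2:**
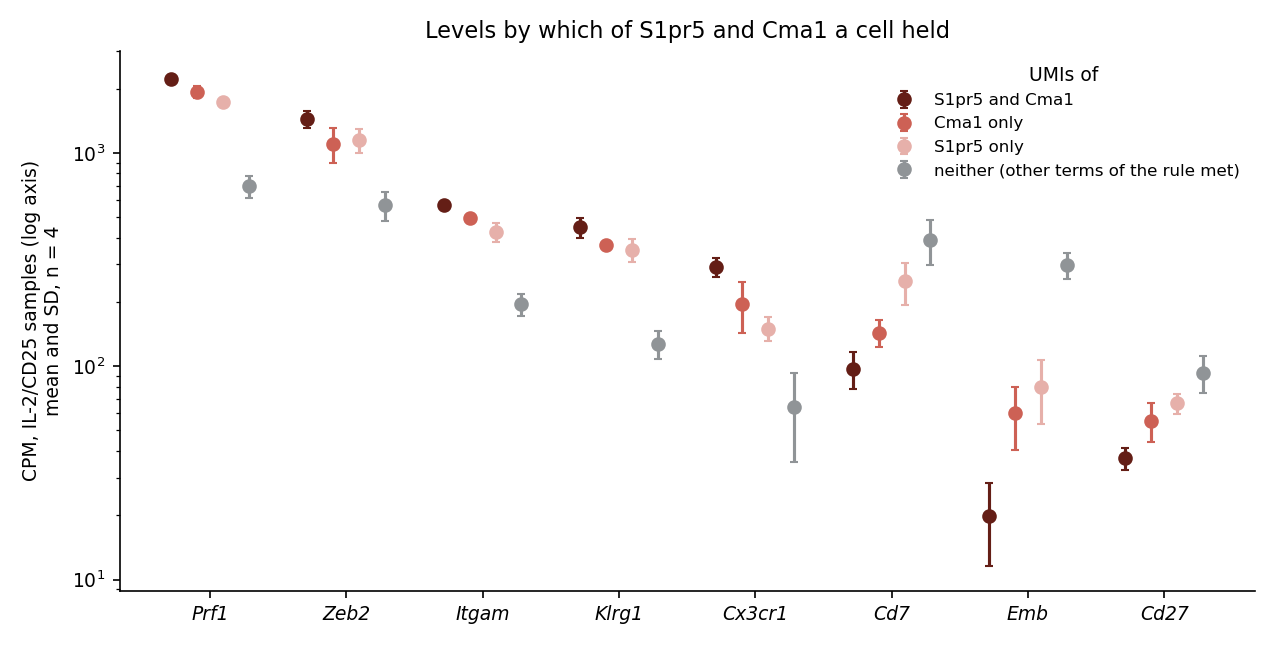
Levels in CPM (log axis) of 8 genes in cells of the 4 IL-2/CD25 samples, by which of S1pr5 and Cma1 a cell held. Points are means over 4 samples and whiskers are SD, from cells with both genes (darkest) to cells with neither (grey). Cx3cr1 is at 291 CPM with both genes and 64.2 CPM with neither, and Emb at 19.9 CPM with both and 296 CPM with neither.

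The stage of maturation was read from Itgam and Cd27 after thinning each cell to 2000 UMIs, which left 713 to 1391 members per IL-2/CD25 sample and 9, 9 and 11 per control. In IL-2/CD25 samples 57.6% ± 1.76 of members had an Itgam UMI and none of Cd27, 4.75% ± 0.923 had both, 3.71% ± 0.609 had Cd27 alone and 34.0% ± 1.59 neither. In controls these shares were 25.3% ± 14.0, 6.73% ± 5.92, 9.76% ± 9.17 and 58.2% ± 4.67. The other NK-gated cells of IL-2/CD25 samples had Itgam alone in 35.7% ± 1.60 and Cd27 alone in 13.5% ± 1.30. The IL-2/CD25 samples lay close together, and the control samples, with 9 to 11 cells each, did not.

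Shares of members with a UMI were tested for 25 genes at this depth, and 0 of 25 (0%) passed adjustment, since the smallest p this design allows gives an adjusted p of 0.0595 here. At the smallest exact permutation p of 0.0286 lay 12 genes, whose groups did not overlap, 9 higher and 3 lower in IL-2/CD25. Zeb2, the transcription factor of terminal NK maturation, was found in 84.9% ± 3.40 of members in IL-2/CD25 and in 38.7% ± 9.91 in control. Klrg1, an inhibitory lectin-like receptor, was found in 52.5% ± 2.83 in IL-2/CD25 and 17.8% ± 13.5 in control. Perforin (Prf1), which is outside the rule, was found in 95.4% ± 0.515 in IL-2/CD25 and 76.8% ± 12.7 in control (SD, n = 4 and 3). Cx3cr1 was found in 28.6% ± 3.20 in IL-2/CD25 and in 0 of 29 control members, which allows a share of up to 10.3% for counting error only, with the cells of 3 samples pooled. At full depth control sample 2 held 4 Cx3cr1 UMIs. Tbx21, which encodes T-bet, was found in 39.3% ± 0.843 in IL-2/CD25 and 20.2% ± 8.27 in control. Itgam, Cd69, Klra7 and Klrc2 were the other higher genes. The 3 lower ones were Cd27, found in 8.46% ± 0.455 in IL-2/CD25 and 16.5% ± 9.33 in control, Klra9, in 34.3% ± 1.91 in IL-2/CD25 and 44.8% ± 0.583 in control, and Gzma, in 99.7% ± 0.0278 in IL-2/CD25 and 100% in control. In a control sample of 9 cells, 1 cell is 11.1%, and a gene of nearly all cells reads 100%. For Cd27, Klra9 and Gzma the lack of overlap therefore says little about direction. Klra9 was found in 4 of 9, 4 of 9 and 5 of 11 control members. At full depth its mean over samples was 346 CPM in IL-2/CD25 members and 352 CPM in control members. By CPM Gzma was higher in IL-2/CD25, as given below. B cells at this depth were counted only if they held no UMI of Ncr1 or Klrb1c. They had a Prf1 UMI in 5.84% in IL-2/CD25 and 1.19% in control, and a Klrg1 UMI in 1.31% in IL-2/CD25 and 0% in control. For Zeb2 the B cell shares were 28.9% in IL-2/CD25 and 25.0% in control, so the control share of members lay nearer to background.

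Ly49 receptors, lectin-like proteins of the Klra genes that bind MHC class I, are switched on gene by gene in single NK cells. At 2000 UMIs a member held UMIs of 2.21, 2.19, 2.26 and 2.31 of the 6 genes Klra1, Klra3, Klra4, Klra7, Klra8 and Klra9 on average in IL-2/CD25, against 2.33, 2.56 and 2.18 in controls. The groups overlapped. The other NK-gated cells held 1.67 to 1.76 in IL-2/CD25 and 1.37 to 1.54 in control, and B cells 0.0959 to 0.177 and 0 to 0.0238. None of the 6 genes was found in 7.05 to 7.99% of members and in 22.3 to 27.3% of the other NK-gated cells of IL-2/CD25 samples. Klra genes are near-identical copies of each other, so counts of single members are uncertain.

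Set beside the other NK-gated cells of the same sample, members of IL-2/CD25 samples were higher for genes of maturity and lower for early and residency genes. Of 7101 genes at 20 CPM or more, 1551 (21.8%) were higher and 1855 (26.1%) lower in members in all 4 IL-2/CD25 samples, a description since the rule chose the cells. Of the late maturation genes 14 of 18 were higher, of the Ly49 genes 8 of 8 and of the cytotoxic granule genes 11 of 18. Of the early stage genes 14 of 15 were lower, of the ILC1 and residency genes 12 of 12, and of the activation genes 18 of 23. With controls included the lower side was not shared. In all 7 samples 0 early stage, 4 ILC1 and residency and 0 activation genes were lower, beside 738 of 7101 genes. Higher in all 7 were 9 late maturation, 6 Ly49 and 9 cytotoxic granule genes, beside 612 of 7101. The rule itself keeps dividing cells and cells with Ifng or Itga1 out of the members.

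The gene steps between members and other NK-gated cells of IL-2/CD25 samples ran from Cx3cr1 (median log2 ratio 1.33) through Zeb2 (0.90), Klrg1 (0.78) and Itgam (0.67) to Prf1 (0.63) and Gzma, which encodes granzyme A (0.46). Lower in members were Gzmc, which encodes granzyme C (-3.73), the residency chemokine receptor Cxcr6 (-2.82), the IL-7 receptor gene Il7r (-2.68), the death ligand gene Tnfsf10 (-2.36), the chemokine gene Xcl1 (-2.26), the IL-2 receptor alpha chain gene Il2ra (-2.04), Tcf7 (-1.64) and Cd27 (-0.98). Il2rb, the beta chain shared by the receptors for IL-2 and IL-15, hardly differed (-0.06). Il2ra encodes CD25, which is named in the injected plasmid, and the Il2ra counts cannot be told apart by source. By the rule for named genes, which asks for the same sign in 7 of 7 samples, the higher genes were Kcnj8, Fbxl2, Borcs7, As3mt, Klra4, Ndnf, Zdhhc15, Baiap3, Klrg1, Klra9, Tmem37, Rap1gap2, Lpin1, Klra8 and Acss2. Kcnj8, a potassium channel gene, was at 58.4, 55.4, 54.6 and 51.0 CPM in members of IL-2/CD25 samples 1 to 4, against 19.6, 29.6, 30.2 and 22.8 CPM in the other NK-gated cells. In controls it was at 14.5, 8.83 and 8.46 CPM in members, against 0, 1.16 and 0 CPM in the other cells. Fbxl2, Ndnf, Zdhhc15 and Baiap3 lay at 8.46 to 29.0 CPM in control members. At such levels the sign in a control sample rests on very few UMIs. The lower ones were Mmp12, Gzmc, Fabp5, Camp, Anxa3, Inpp4b, Ube2c, Cxcr6, Ccl22, Krt18, Cpe, C1qb, Dpp4, C1qa and Clu, which include macrophage (C1qa, C1qb), neutrophil (Camp) and epithelial (Krt18) genes. Cells of other types were more frequent among the other NK-gated cells, as given above, and their part in these lower values was not tested.

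**Figure D3:**
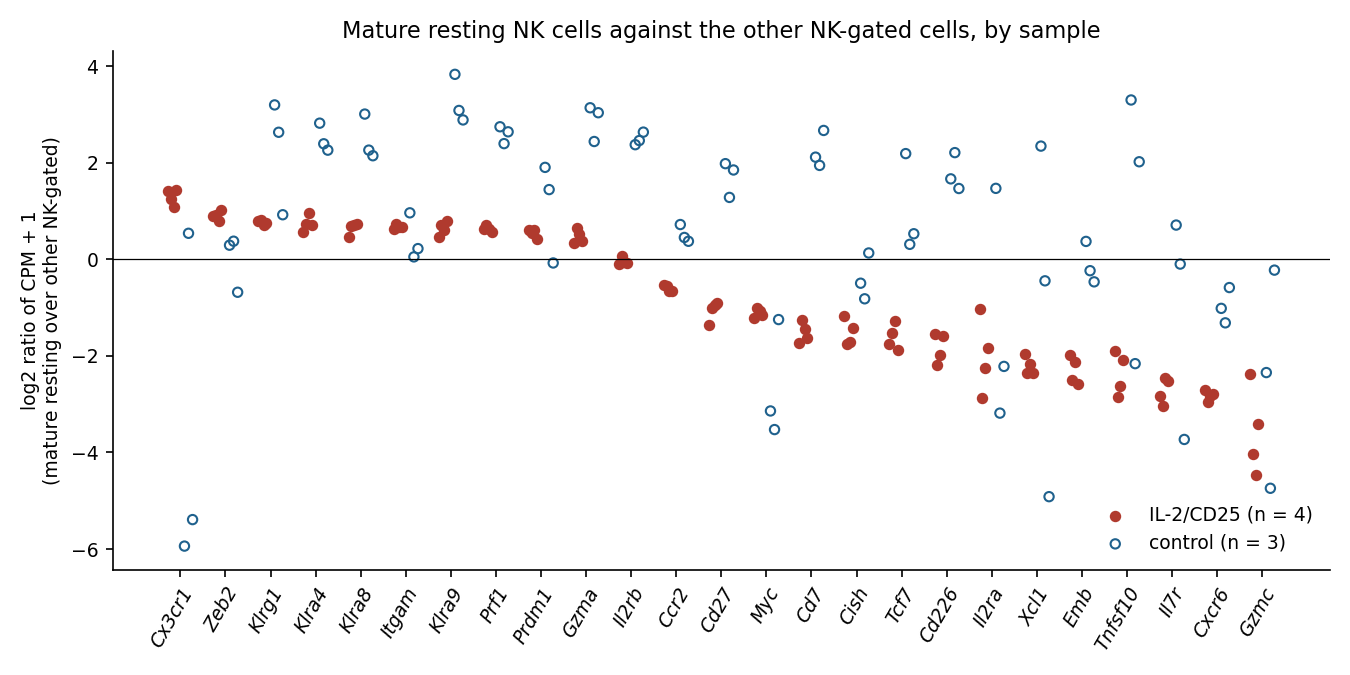
Log2 ratio of CPM + 1 (vertical axis) in mature resting NK cells over the other NK-gated cells of the same sample for 25 genes, with filled red points for the 4 IL-2/CD25 samples and open blue points for the 3 control samples. In IL-2/CD25 the genes run from Cx3cr1, at a median of 1.33, to Gzmc, at -3.73, and control points scatter widely.

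Between the groups, members of IL-2/CD25 samples were compared with members of controls on counts summed per sample (edgeR's quasi-likelihood test, Benjamini-Hochberg adjustment, adjusted p under 0.05). Of 10680 genes tested, 1098 passed (10.3%), 529 higher (4.95%) and 569 lower (5.33%) in IL-2/CD25. The median log2 change over all genes was 0.24, and with another scaling (relative log expression) it was 0.09, with 974 genes passing (9.12%), 321 higher (3.01%) and 653 lower (6.11%), so the split between directions depends on the scaling. With the cells of other types left out, 620 of 10247 genes passed (6.05%), 360 higher (3.51%) and 260 lower (2.54%), and 296 of the higher and 212 of the lower genes were the same as before. The count ran from 416 without control sample 3 to 1828 without control sample 2, and was 422, 532 and 590 without IL-2/CD25 sample 2, 3 and 1. Genes higher in IL-2/CD25 were 124 of 9359 without IL-2/CD25 sample 2 and 1006 of 11388 without control sample 2. List counts below are to be read beside these counts and the shares over all genes. The lists below share some genes (Cx3cr1, Itgb2, Klf2, Cd69 and Gzmb among them). The groups also differed in how many members held a single UMI of S1pr5 or Cma1, as given above. The part of this difference in the gene changes was not tested. Under relative log expression scaling 8 late maturation, 9 trafficking and 8 transcription factor genes still rose, and 11 glycolysis and 12 MYC and ribosome biogenesis genes fell.

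**Figure D4:**
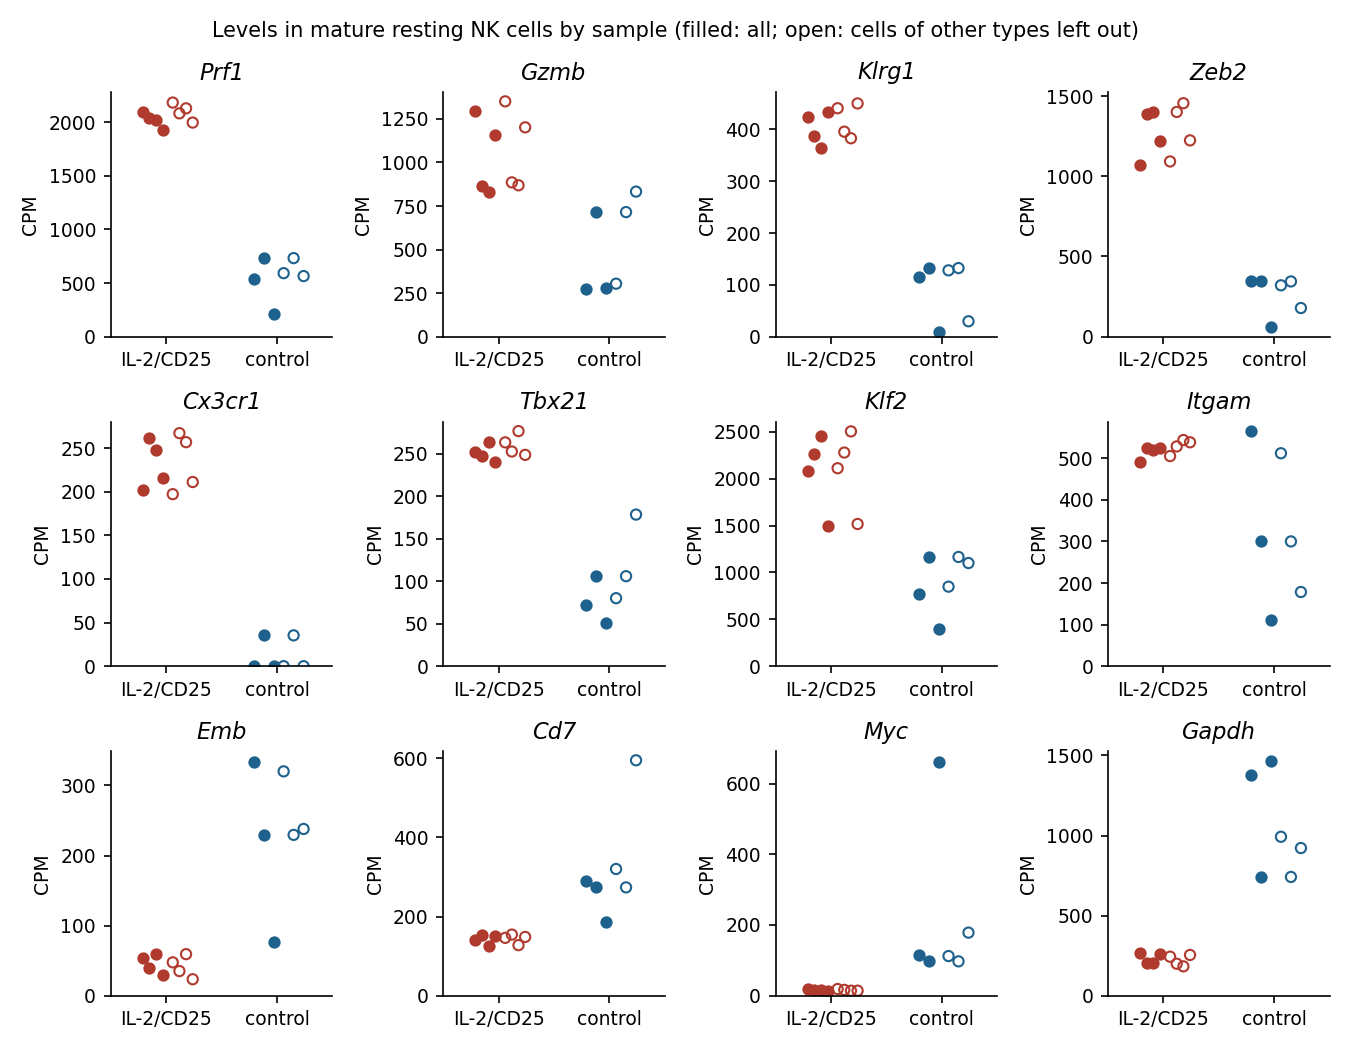
Levels in CPM (linear axes from 0) of 12 genes in mature resting NK cells, with a point per sample, IL-2/CD25 (n = 4) in red left of control (n = 3) in blue. Filled points use all members and open points leave out cells of other types. With all members, Prf1 lies at 1925 to 2098 CPM in IL-2/CD25 and at 212 to 733 CPM in control, and Gapdh at 204 to 269 CPM in IL-2/CD25 and 741 to 1464 CPM in control.

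Perforin was the clearest change among the cytotoxic granule genes. Prf1 stood at 2098, 2043, 2024 and 1925 CPM in IL-2/CD25 samples 1 to 4, against 537, 733 and 212 CPM in control samples 1 to 3. The barcode of 74568 UMIs, with 63.1% of the member UMIs of control sample 3, lowers the level there. All 4 IL-2/CD25 samples were above all 3 controls, and Prf1 rose by 2.05 ± 0.34 (log2, SE; edgeR adjusted p = 0.00562) and by 1.76 with other types left out (adjusted p = 3.28e-07). Gzmb, which encodes granzyme B, stood at 1293, 865, 830 and 1160 CPM in IL-2/CD25, against 276, 715 and 279 CPM in control (log2 1.26, edgeR adjusted p = 0.045). Its call was lost on leaving out any sample except control sample 2, with an adjusted p of up to 0.149. Gzma, at 11168 to 14480 CPM in IL-2/CD25 and 3563 to 9251 CPM in control, did not pass (log2 0.93, edgeR adjusted p = 0.0677). Lamp1, the lysosomal membrane protein that reaches the surface when granules are released, fell in IL-2/CD25, at 93.4, 79.2, 101 and 84.3 CPM against 319, 221 and 161 CPM in control (log2 -1.32, edgeR adjusted p = 0.0078). Gzmb (log2 0.91), Gzma (0.62) and Lamp1 (-1.52) all passed with other types left out, Gzma at an edgeR adjusted p of 0.043. In the whole list of 19 tested genes 4 rose and 1 fell, with a median log2 change of 0.85 beside 0.24 over all genes. With other types left out 4 rose and 2 fell, and with 1 sample left out the number that rose ran from 1, without control sample 3 or IL-2/CD25 sample 2, to 8, without control sample 2, and was 2 without each of the other 4 samples.

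Genes of late maturation were higher in IL-2/CD25. Of 18 tested, 10 rose and none fell, with a median log2 change of 1.18, and with other types left out 10 rose as well. With 1 sample left out 8 to 11 rose and none fell. Within IL-2/CD25 the levels also followed the rule's genes. Klrg1 was at 306 CPM in members with 1 UMI of S1pr5 or Cma1 and at 439 CPM with 2 or more. Zeb2 was at 1019 and 1359 CPM in the same order. Members with a single UMI were more frequent in controls, as given above, and their part in this change was not tested. Zeb2 stood at 1069, 1389, 1398 and 1217 CPM in IL-2/CD25, against 348, 344 and 59.2 CPM in control (log2 2.40 ± 0.40, edgeR adjusted p = 0.00647). Klrg1 stood at 424, 387, 364 and 434 CPM in IL-2/CD25, against 116, 132 and 8.46 CPM in control (log2 2.31 ± 0.43, edgeR adjusted p = 0.0091). In control sample 3 both levels are lowered by the barcode of 74568 UMIs. Cx3cr1 stood at 201, 261, 247 and 215 CPM in IL-2/CD25, against 0, 35.3 and 0 CPM in control, where it rests on 4 UMIs (log2 4.11, edgeR adjusted p = 0.00237). Itgam, the gene of CD11b, overlapped between the groups, at 491 to 524 CPM in IL-2/CD25 and 110 to 566 CPM in control, and did not pass (log2 0.77, edgeR adjusted p = 0.175).

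Other genes of this list that rose were Itgb2 (log2 2.17), which encodes the beta chain that pairs with CD11b and LFA-1, Tbx21 (1.71), Ahnak (1.40) and Tyrobp (1.09), which encodes the DAP12 adaptor of activating receptors. These 4, and Zeb2, Klrg1 and Cx3cr1, kept their call when any 1 sample was left out. Spn, which encodes CD43, rose (log2 1.79), but its adjusted p was 0.053 without control sample 1. Prdm1, which encodes BLIMP-1 (log2 1.48), lost its call without control samples 1 or 3 or IL-2/CD25 samples 1, 2 or 3, with an adjusted p of up to 0.147, and with other types left out (0.067). Zeb2 (log2 2.14), Klrg1 (1.94) and Cx3cr1 (3.67) all passed with other types left out.

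Genes of trafficking, the receptors and integrins that move NK cells between blood and tissue, were also higher. Of 18 tested, 10 rose and none fell (median log2 1.38), and 9 rose with other types left out. With 1 sample left out 5 to 10 rose, 5 without IL-2/CD25 sample 2, 6 without control sample 1 or IL-2/CD25 sample 1, and none fell. S1pr1, the receptor by which lymphocytes leave tissues towards the blood, stood at 60.2, 75.9, 79.9 and 57.7 CPM in IL-2/CD25, against 14.5, 0 and 8.46 CPM in control, on 2 control UMIs (pooled ratio 10.3, counting interval 2.84 to 84.9 at 95%; log2 3.34, edgeR adjusted p = 0.0101). The integrin genes Itga4 (log2 1.66), Itgb7 (1.71) and Itgb2 rose and kept their calls without any 1 sample. Itgal, which encodes the alpha chain of LFA-1 (log2 1.39), lost its call without IL-2/CD25 sample 2, with an adjusted p of 0.0516. Klf2, which drives S1pr1 in T cells, stood at 2082, 2265, 2460 and 1496 CPM in IL-2/CD25, against 769, 1165 and 398 CPM in control (log2 1.41, edgeR adjusted p = 0.0231). It lost its call without control sample 1 or IL-2/CD25 samples 1 or 2, with an adjusted p of up to 0.0737. The chemokine receptor gene Cxcr4, at a log2 change of 0.06, did not pass.

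Among NK transcription factors 9 of 24 rose and none fell (median log2 0.90), and 8 rose and 1 fell with other types left out, Tcf7 being the one that fell. With 1 sample left out the number that rose ran from 4, without IL-2/CD25 samples 1 or 2, to 13, without control sample 2; it was 5 without IL-2/CD25 sample 3 and 6 without control sample 1. Gata3 stood at 129, 135, 146 and 127 CPM in IL-2/CD25, against 14.5, 35.3 and 25.4 CPM in control (log2 2.33, edgeR adjusted p = 0.00304). Irf8, needed by NK cells in antiviral responses, rose by 1.95 (edgeR adjusted p = 0.00766). Gata3, Irf8, Tbx21 and Zeb2 kept their calls without any 1 sample. Eomes (log2 1.21) and Runx3 (1.41) rose, but each lost its call on leaving out any of 5 samples, with adjusted p-values of up to 0.0752 and 0.0809. Eomes was lost without control samples 1 or 3 or IL-2/CD25 samples 1 to 3, and Runx3 without control sample 1 or any of the 4 IL-2/CD25 samples. Among quiescence genes 6 of 17 rose and 1 fell, and with other types left out 5 rose and 1 fell. The number that rose was 1 without control sample 1 or IL-2/CD25 samples 1 or 2, 3 without IL-2/CD25 sample 3 and 11 without control sample 2. Klf3 (log2 1.69) kept its call without any 1 sample, and Pik3ip1, an inhibitor of PI3K, fell (log2 -1.90), lost without control samples 1 or 2, with an adjusted p of up to 0.135.

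Few receptor genes passed, beside 4.95% higher and 5.33% lower over all genes tested. Of the 10 Ly49 genes 0 passed edgeR's test (median log2 0.51, 4 at an unadjusted p under 0.05), DESeq2 called 1 higher and 1 lower, and 4 passed in edgeR when control sample 2 was left out. With other types left out edgeR called 1 of 9 higher, beside 3.51% over all genes tested in that fit. In the list of NKG2 and other NK receptors, 5 of 24 rose and 1 fell (median log2 0.57), and with other types left out 5 of 22 rose and 2 fell. The number that rose was 2 without IL-2/CD25 sample 2, and 3 without each of the other 3 IL-2/CD25 samples. Cd244a, which encodes the 2B4 receptor, stood at 304, 325, 303 and 302 CPM in IL-2/CD25, against 87.0, 141 and 42.3 CPM in control, and kept its call without any 1 sample (log2 1.77, edgeR adjusted p = 0.0071, and log2 1.61 with other types left out). Klrc1, the inhibitory NKG2A gene, rose by 1.28 and lost its call without IL-2/CD25 sample 2, with an adjusted p of 0.0539, and with other types left out (0.0886). Klrc2, of the activating NKG2C receptor, rose by 1.34 but lost its call without control sample 1 or any of the 4 IL-2/CD25 samples (up to 0.0785). Fcgr3, of the antibody receptor CD16, fell by 1.22 on the log2 scale and lost its call without control sample 1 (adjusted p = 0.127). Genes of the activating receptor NKG2D (Klrk1, log2 0.82) and of its CD94 relative (Klrd1, 0.47) did not pass.

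Receptors for the cytokine that the plasmid encodes did not move as one. Il2rb stood at 1148, 1134, 1142 and 1258 CPM in IL-2/CD25, against 958, 1527 and 432 CPM in control, and the groups overlapped (log2 0.27, edgeR adjusted p = 0.641). With other types left out its means were 1216 CPM in IL-2/CD25 and 1327 CPM in control. Il2rg, of the gamma chain, stood at 272, 276, 276 and 256 CPM in IL-2/CD25, against 58.0, 132 and 42.3 CPM in control, and kept its call without any 1 sample (log2 1.75, edgeR adjusted p = 0.00816). In the list of IL-2 and IL-15 signalling, 2 of 20 rose and none fell (median log2 0.42), beside 4.95% and 5.33% over all genes tested. The other that rose was the survival kinase gene Pim1. Pim1 rose by 1.18 (edgeR adjusted p = 0.027) and lost its call without IL-2/CD25 samples 1, 2 or 3, with an adjusted p of up to 0.076. The feedback inhibitor genes Cish (log2 -1.24) and Socs1 (-0.61), which IL-2 induces in lymphocytes, and Bcl2 (-0.54) did not pass. Bcl2 with other types left out fell by 0.87 on the log2 scale (edgeR adjusted p = 0.0104). Of 8 genes of IL-12 and IL-18 signalling 2 rose, and 1 with other types left out. None passed without control sample 1 or IL-2/CD25 samples 1, 2 or 3. Il18rap, of the IL-18 receptor (log2 1.33), lost its call without control sample 1 or IL-2/CD25 samples 1, 2 or 3 (adjusted p up to 0.0609).

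Early stage genes were lower in IL-2/CD25 on the median (log2 -0.54), but few passed: 2 of 16 fell and 1 rose, and with other types left out 5 fell and 1 rose. The direction rests on control sample 1, without which the median was 0.11 and none passed. Without control sample 2 the median was -0.19, with none falling and 2 rising, and without control sample 3 it was -0.95, with 4 falling. Emb stood at 53.3, 39.1, 59.95 and 29.96 CPM in IL-2/CD25, against 334, 230 and 76.2 CPM in control (log2 -2.13, edgeR adjusted p = 0.0128). It lost its call without control samples 1 or 2, with an adjusted p of up to 0.0744. Cd7, a surface protein of early NK and T cells, stood at 142, 154, 125 and 151 CPM in IL-2/CD25, against 290, 274 and 186 CPM in control (log2 -0.78, edgeR adjusted p = 0.0382). It lost its call without control samples 1 or 2 or IL-2/CD25 samples 1, 2 or 3 (adjusted p up to 0.137). Cd27 did not pass (log2 -0.03, edgeR adjusted p = 1). Of the ILC1 and residency genes 1 of 13 rose and none fell, beside 4.95% and 5.33% over all genes tested. The 1 that rose was Cd69. Cd69 (log2 1.48) also lost its call without control samples 1 or 3 or IL-2/CD25 samples 1, 2 or 3, with an adjusted p of up to 0.125. Cd69 is also an early activation gene, and B cells had a Cd69 UMI in 68.2% in IL-2/CD25 and 43.7% in control.

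Over all genes tested 4.95% rose and 5.33% fell, and 3.51% and 2.54% with other types left out. Of 28 activation genes 4 rose and 3 fell, and with other types left out 4 of 27 rose and 4 fell. With 1 sample left out these counts moved: 10 rose and none fell without IL-2/CD25 sample 4, 9 and none without control sample 2, and 2 and none without control sample 1 or IL-2/CD25 sample 2. It was 2 and 1 without IL-2/CD25 sample 1, and 2 and 2 without control sample 3 or IL-2/CD25 sample 3. The chemokine gene Ccl4, which NK cells release on contact with targets, stood at 1571, 1131, 1477 and 737 CPM in IL-2/CD25, against 261, 477 and 152 CPM in control (log2 2.04, edgeR adjusted p = 0.0106). It and Irf8 kept their calls without any 1 sample. Members had no Ifng UMI by the rule, so that gene says nothing here. Jun fell (log2 -0.95, edgeR adjusted p = 0.0271) but lost its call without control samples 1 or 2 or IL-2/CD25 samples 2 or 4 (adjusted p up to 0.0773). Of 12 genes induced by tissue dissociation none rose and 3 fell. Ier3 stood at 6.93, 15.8, 3.79 and 3.37 CPM in IL-2/CD25, against 102, 70.6 and 186 CPM in control (log2 -4.04, edgeR adjusted p = 0.00561). Dissociation was not recorded per sample, and its part in these values was not tested.

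Genes of growth were lower in members of IL-2/CD25 samples. In glycolysis 10 of 15 tested genes fell and none rose (median log2 -1.95), and with other types left out 8 fell. Gapdh stood at 269, 204, 204 and 263 CPM in IL-2/CD25, against 1378, 741 and 1464 CPM in control (log2 -2.32 ± 0.25, edgeR adjusted p = 0.00105). Ldha (log2 -2.26), Pgk1 (-2.24), Aldoa (-2.14), Tpi1 (-2.08), Pkm (-1.95) and Gpi1 (-1.43) also fell and, with Gapdh, kept their calls without any 1 sample. In the list of MYC and ribosome biogenesis 10 of 18 fell and none rose (median log2 -1.60), and with other types left out 6 fell. Without control sample 3, the library with the barcode of 74568 UMIs, 4 fell and the median was -0.78. Myc stood at 18.2, 16.8, 15.7 and 14.1 CPM in IL-2/CD25, against 116, 97.1 and 660 CPM in control (log2 -4.28 ± 0.53, edgeR adjusted p = 0.00208). Npm1, a nucleolar chaperone gene, fell by 1.94 on the log2 scale, the polyamine enzyme gene Srm by 4.59 and the translation factor gene Eif5a by 2.13. These 3 and Myc kept their calls without any 1 sample, but the changes were smaller without control sample 3, at -1.02 for Npm1, -2.55 for Srm (edgeR adjusted p = 0.04998), -1.30 for Eif5a and -2.66 for Myc.

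The same genes were high in the tissue around the control members. Over all kept barcodes Myc was at 40.7 CPM in IL-2/CD25 and 1087 CPM in control, and Gapdh at 376 CPM in IL-2/CD25 and 2637 CPM in control. C-myc was injected in all samples, and the Myc counts cannot be told apart by source. The tumour list (Krt8, Krt18, Krt19, Spp1) summed to 18.6 to 185 CPM in members of IL-2/CD25 samples, against 479, 247 and 5915 CPM in control. An estimated 10.0, 10.9, 10.3 and 21.2% of member UMIs came from free RNA in IL-2/CD25, against 24.02, 8.09 and 16.4% in control. With other types left out, Myc fell by 2.82 on the log2 scale (edgeR adjusted p = 1.38e-05) and Gapdh by 1.88 (3.76e-08). With the estimated free RNA subtracted, Myc fell by 3.91 on the log2 scale (edgeR adjusted p = 0.0221).

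Other lists gave few calls, beside 4.95% higher and 5.33% lower over all genes tested. Among proliferation genes none of 19 rose and 3 fell (Rrm2, Dut and Cdca8), and all 3 lost their call without control sample 3. With other types left out none of them passed and 1 listed gene, H2az1, rose. Of 17 interferon response genes 0 passed edgeR's test (median log2 0.38, 5 at an unadjusted p under 0.05), and DESeq2 called 1 higher and 2 lower. In edgeR 1 of 16 was lower with other types left out, 3 were higher without control sample 2, and without control sample 3 the median was -0.09. Of 9 genes of TGF-beta signalling 1 rose. That gene was Smad4 (log2 1.26), which lost its call without IL-2/CD25 samples 2 or 3 (adjusted p up to 0.0618). The plot of list members shows most maturation, trafficking and transcription factor genes right of 0 and most glycolysis and MYC genes left of it.

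**Figure D5:**
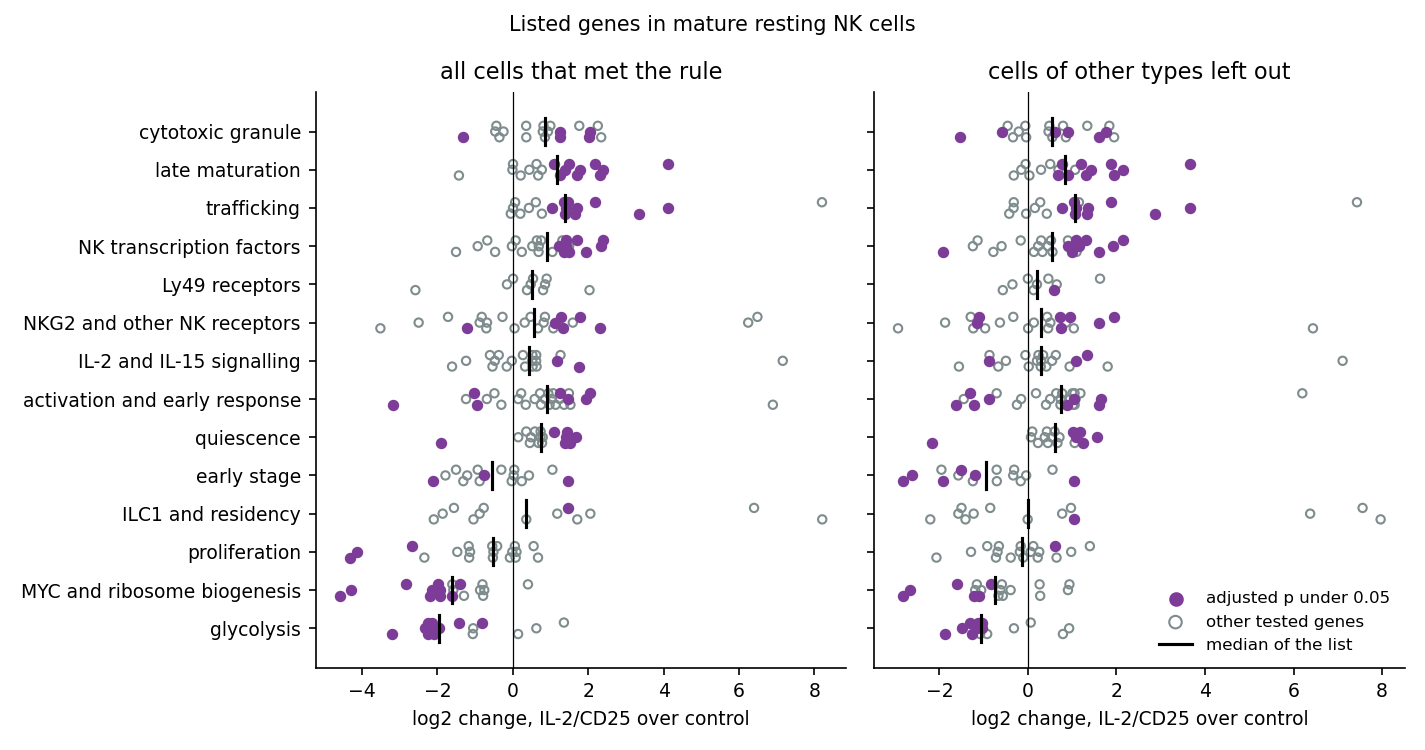
Log2 change, IL-2/CD25 over control, of each tested gene (points) in 14 gene lists, for all members (left) and with cells of other types left out (right). Filled points have an adjusted p under 0.05, thick bars are list medians and the thin line is 0. On the left the median is 1.38 for trafficking, 1.18 for late maturation and -1.95 for glycolysis.

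The largest log2 values of the fit belonged to genes with no UMI in control members or with hardly any in IL-2/CD25 members. By the rule for named genes the 15 highest all had 0 UMIs in the 53 control members. These genes entered the test only through their counts in IL-2/CD25. With a control count of 0 their log2 values do not measure the size of a change. The bounds below divide by all control member UMIs, and would be lower without the cells of other types. Adrb1, the beta-1 adrenergic receptor gene, was at 61.3 ± 8.13 CPM in IL-2/CD25, at least 6.06-fold higher than the 3 UMIs over the group that a count of 0 allows. For Zfp942, Helb, Nhsl2, Lrch1, Tgfbrap1, Ttll3, Abcd4, E2f2, Hcfc2, Tor2a, Rmi1, Zfp160, Kcnk5 and Ppp2r1b the bound was at least 3.90-fold down to at least 2.06-fold. Of the 15, 9 lost their call in at least 1 fit with a sample left out, with an adjusted p of up to 0.0961, and Ppp2r1b also with other types left out (0.0639). The 15 lowest were Cdkn2a, Aqp8, Crct1, Cda, Sprr1a, Fkbp11, Prelid2, Anxa3, Wfdc2, Fggy, Krt7, F7, Cdkn2b, Krt18 and Rab44. Cdkn2a stood at 0.198 to 0.365 CPM in IL-2/CD25, against 29.0, 17.7 and 652 CPM in control (log2 -9.69, edgeR adjusted p = 0.00112), and with other types left out control sample 3 was at 0. Fkbp11 (adjusted p = 0.153), Wfdc2 (0.397), Krt7 (0.131) and Krt18 (0.43) lost their calls in edgeR without control sample 3. After other types were left out, 10 of the 15 were too low to be tested, and in 8 of the 15 the groups overlapped. Krt18, an epithelial keratin, stood at 0.595 to 32.8 CPM in IL-2/CD25, against 116, 44.1 and 1413 CPM in control. Of these 15 lower genes, 14 were higher over all kept barcodes of controls than the control members' mean (Krt18 at 1466 CPM and Wfdc2 at 536 CPM), and the part of other cells and free RNA in them was not tested.

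A further list was drawn up after the values were seen, of genes with at least 10 control UMIs that passed with and without the other types. It left out the same gene classes as the named genes and asked for no overlap in either fit. In the higher group, members had to reach 20 CPM and at least the level over all kept barcodes. This last term drops genes that were high in the surrounding tissue. Of 296 higher and 212 lower genes that passed both fits, 183 and 21 met these terms. The split between directions therefore depends on the terms. Over all genes tested 4.95% rose and 5.33% fell. Prkcb, a protein kinase C gene, stood at 258, 305, 295 and 273 CPM in IL-2/CD25, against 72.5, 61.8 and 16.9 CPM in control (log2 2.58, edgeR adjusted p = 0.00236). Rap1gap2 (log2 2.14), Nab1 (1.94), Gpc1 (2.23), Arl4c (2.14), Zmiz1 (1.99), Elf4 (1.80), Osbpl3 (2.06) and Lpin1 (1.73) rose as well, and all 9 kept their calls without any 1 sample. Rap1gap2 and Lpin1 were also higher in members than in the other NK-gated cells in 7 of 7 samples. Among the lower genes Ddit4, a stress-induced inhibitor of mTOR signalling, fell by 1.85 on the log2 scale and kept its call.

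Whether a change between groups was larger or smaller in the members than in the other NK-gated cells was tested as an interaction of group and gate, with samples as blocks (edgeR's quasi-likelihood test). Of 13399 genes 963 passed (7.19%), 630 with a more positive (4.7%) and 333 with a more negative change (2.49%) in members. With another scaling (relative log expression) 556 passed (4.15%), 154 more positive (1.15%) and 402 more negative (3%), and with other types left out 85 of 11809 passed (0.72%), 68 more positive (0.576%) and 17 more negative (0.144%). Without control sample 2 the count was 534. The 51 genes at 20 CPM or more that passed in both fits include the following, chosen after their values were seen. Their interactions are log2 values, members minus other cells. Cd7 was at 143 CPM in IL-2/CD25 members and 250 CPM in control members, but at 414 CPM in the other cells of IL-2/CD25 and 54.8 CPM in those of control (interaction -3.38, edgeR adjusted p = 1.2e-07). The other cells, with other types left out, were at 459 CPM in IL-2/CD25 and 323 CPM in control, and the interaction was -1.62. Emb (-1.90), the adhesion receptor gene Cd226 (-3.56), the chemokine gene Ccl5 (-2.42), Il2rb (-2.17), Itgax (-1.15) and Cd274 (-1.86), which encodes PD-L1, also had a more negative change in members.

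With other types left out these interactions were -1.46 for Emb, -2.07 for Cd226, -0.68 for Ccl5, -0.47 for Il2rb, -1.19 for Itgax and -2.77 for Cd274. Without control sample 2 the calls of Cd226 (adjusted p = 0.0916), Itgax (0.0887), Cd274 (0.239), Stmn1 (0.0505) and Ezh2 (0.0799) were lost, and without control sample 1 those of Itgax (0.36) and Cd274 (0.119). The other way round were the growth genes Npm1 (1.22), Tubb5 (1.24), Stmn1 (1.93) and Ezh2 (2.59). Ezh2 stood at 56.4 CPM in members of IL-2/CD25 and at 13.3 CPM in those of control. With other types left out, control members were at 5.34 CPM, so the Ezh2 value rests on very few control UMIs. In the other cells Stmn1, a microtubule gene of dividing cells, was at 55.3 CPM in IL-2/CD25 and 158 CPM in control, and in members at 62.7 CPM in IL-2/CD25 and 63.9 CPM in control. Dividing cells, which the rule keeps out of the members, were 4.07 to 6.45% of NK-gated cells in IL-2/CD25 and 16.5 to 33.3% in control, and their part in these values was not tested.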

How the data were processed

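Single-cell RNA was measured in 7 mouse libraries (4 IL-2/CD25, 3 control). Per the submitters' processing notes, bcl2fastq 5.0.1 and Cell Ranger 7.0.0 were used; the genome build is not given in the sources used here. The deposited values are UMI counts per gene and barcode (55357 features), not normalized by the authors. No per-sample columns of another series were present.

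Barcodes with at least 500 UMIs, 200 genes and under 20% mitochondrial UMIs were kept, and called doublets were not removed (an alternative removes them). Member counts were summed per sample and tested in edgeR 4.0.16 (R 4.3.3, limma 3.58.1; TMM, filterByExpr, quasi-likelihood, Benjamini-Hochberg over all genes tested, 0.05), in samples with at least 10 members; CPM divides by the members' UMIs. The 11 genes the rule uses were not tested. Shares were tested by exact two-sided permutation over 35 splits, and the floors (3 counts) and 95% intervals hold counting error alone. The share of free RNA is the summed share of other types' marker lists in the cells over that in all UMIs of the sample, as the median over lists. Other software was DESeq2 1.42.0, matplotlib 3.10.9, scipy 1.17.1 and pandas 2.3.3 under Python 3.11.15, with scikit-learn 1.9.0 for doublets. The fits were tested on simulated data with the same dispersion for all genes. In the fit of members 7.19% of calls were false, and 4.55% in that of the interaction. Falls were found less often than rises. At 4-fold, 54.5% of falls and 100% of rises were found in members, and 42.4% and 82.4% for the interaction. Alternatives were scaling, filters, DESeq2, replicate block, doublets, stricter cells, thinning to 2000 UMIs, 20 members, 2 rule UMIs, free RNA and each sample left out. Leaving out cells in which another type's list exceeded the NK list was added after seeing the data.

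The members and the 18 gene lists were chosen with earlier results of these data known. Named genes are, per direction, the 15 of largest log2 change that passed with at least 20 CPM in the higher group, no overlap, no unnamed, mitochondrial, ribosomal or receptor segment gene, and a level over all kept barcodes of at most 5 times that of members; for members against other cells, the 15 of largest median log2 ratio with one sign in all 7 samples.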

Additional observations from a re-analysis of the deposited data

Results flagged for a closer look

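Among the 4 IL-2/CD25 samples, 1 lay far from the other 3 for 12 of 165 values examined, and chance flags about 1 in 20 such groups. These 12 values were as follows. The share of thinned members with a Klrc1 UMI was 36.6% in IL-2/CD25 sample 4. In CPM of members, sample 1 stood apart for Hcfc2 (20.8), Wfdc2 (14.2), Krt18 (32.8) and Itgam (491), and sample 2 for Crct1 (0.495) and Cd244a (325). Sample 3 stood apart for Fkbp11 (2.78) and Rasa3 (203), and sample 4 for Il2rb (1258), Runx3 (421) and Pglyrp1 (179).

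The change between groups differed between members and other NK-gated cells for 963 of 13399 genes (7.19%, edgeR's quasi-likelihood interaction test). With other types left out it differed for 85 of 11809 genes (0.72%). Among the 963 genes were 11 that were chosen after their values were seen. Their log2 interactions were -3.38 for Cd7, -1.90 for Emb, -3.56 for Cd226, -2.42 for Ccl5, -2.17 for Il2rb, -1.15 for Itgax and -1.86 for Cd274, and 1.22 for Npm1, 1.24 for Tubb5, 1.93 for Stmn1 and 2.59 for Ezh2. With other types left out they were -1.62, -1.46, -2.07, -0.68, -0.47, -1.19 and -2.77 for the first 7 in this order. For Npm1, Tubb5, Stmn1 and Ezh2 they were then 0.48, 1.18, 3.73 and 4.77. The last rests on very few control UMIs, with Ezh2 at 5.34 CPM in control members.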

How the results depend on the processing

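The 3 shares kept their direction in every setting run. With 1 sample left out the differences were 24.1 to 28.3 points of NK-gated cells, 10.99 to 12.4 of kept barcodes and 25.7 to 29.5 after thinning, but such designs cannot give a p under 0.0667 or 0.1. With the replicate block they were 25.2, 11.1 and 26.5 (exact sign-flip permutation p = 0.25, the smallest that 3 pairs allow). The labels do not say that samples of the same number are paired, so the block is given only here. Gene deviations of same-numbered samples correlated at 0.0123, 0.119 and -0.0887. With 16, 23 and 14 control members these deviations hold much counting error, so the correlations cannot decide on pairing.

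Against 1098 genes called between groups, the count was 2052 with no low-count filter, 2001 with DESeq2, 510 with the replicate block, 475 with free RNA subtracted and 620 with other types left out. It was 72 with at least 20 members, 19 with thinned cells and 2 with 2 S1pr5 and Cma1 UMIs; in these 3 fits 1 control sample remains and is assumed to vary like the IL-2/CD25 samples. With 1 sample left out it was 416 to 1828, and with other types also left out it was 263, 307 and 425 without control samples 1, 2 and 3, and 567, 449, 559 and 661 without IL-2/CD25 samples 1 to 4. Of 111 named genes called, 58 kept their call without any 1 sample.

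Listed genes called, 76 over all lists, were 134 with no filter, 115 with DESeq2, 10 with at least 20 members, 7 thinned, 48 with free RNA subtracted and 0 with 2 S1pr5 and Cma1 UMIs (973 of all genes at an unadjusted p under 0.05). They were 43 to 112 with 1 sample left out, and 43 to 84 with other types also left out (43 without control sample 1 and 47 without control sample 2). Of shares with a UMI, 0 passed in each of these. The interaction count was 556 under relative log expression scaling, 16 thinned, 85 with other types left out and 534 to 1217 with 1 sample left out. The count of genes with 1 sign in all samples between members and other cells, 1350, was 673 with other types left out.

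Some genes changed sign in fits with 1 control sample, none of them called there. Thinned, the log2 change was -0.23 for Klrc1, 0.54 for Jun, 0.62 for Hsp90aa1, 6.42 for Ier3 and 8.05 for Pik3ip1, and the interaction 2.14 for Itgax, 8.76 for Cd274 and -0.0101 for Tubb5. With 2 S1pr5 and Cma1 UMIs it was 0.80 for Tnfrsf9, 0.36 for Hsp90aa1, 8.501 for Dut and 0.38 for Odc1. With other types left out Dut was at 0.0615 without control sample 1 and 0.19 without control sample 2. The causes were not tested.

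The number of cells limits the controls: 53 cells carry every control level, and 29 remain at 2000 UMIs.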
